A study of Mus musculus with 6 samples.

Results

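Genes that move a B-cell progenitor through the G1 phase or hold it there were followed in pre-B cells of the Eμ-Myc mouse. This mouse is a model of B-cell lymphoma. The genes are 10 of the 37991 in the count files and were taken by name: the cyclins Ccnd2, Ccnd3, Ccne1 and Ccne2, the kinases Cdk4, Cdk6 and Cdk2, the inhibitors Cdkn1b and Cdkn2c, and Rb1. All 10 passed the filter on low counts and were among the 16683 genes tested. Each stage had 2 libraries of polyadenylated RNA, 6 in all, and the study treats individual animals as replicates.

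Wild-type cells came from C57BL/6 mice of 4 to 6 weeks without the transgene. Premalignant cells came from heterozygous Eμ-Myc (EμMyc/+) mice of the same age and strain, in which the immunoglobulin heavy chain enhancer drives Myc in B-lineage cells. Malignant cells came from EμMyc/+ mice of 10 to 20 weeks with established spontaneous lymphoma. All cells were sorted from bone marrow for high B220, low IgM and low IgD, a gate that also admits pro-B cells. The methods call the malignant cells B220+ IgM- IgD- and give mice of either sex for them, against females for the other stages. Age, sex and gate therefore cannot be told apart from malignancy here, and 2 lymphomas stand for the malignant stage.

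D-type cyclins bind CDK4 and CDK6 in response to growth signals, E-type cyclins bind CDK2 later in G1, and both kinds of complex phosphorylate the RB1 protein. Phosphorylated RB1 releases E2F transcription factors, which switch on genes for DNA replication. The INK4 inhibitors, p18 (Cdkn2c) among them, block CDK4 and CDK6, and p27 (Cdkn1b) blocks cyclin E-CDK2. In normal development cyclin D3 serves the expansion of large pre-B cells, and p27 rises as cells leave the cycle.

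Total counts lay between 30031100 and 53453055 per library, so that a floor of 3 counts was 0.0526 to 0.108 CPM (counts scaled to a common library size, here with TMM). Myc, the gene the transgene carries, had 33.8 and 41.4 CPM in wild type, 1164 and 1155 in premalignant and 1732 and 1578 in malignant libraries, so that every transgenic library lay far above wild type. The 8 pre-B markers were found in every library, with a summed level of 5758 and 6570 CPM in wild type, 2900 and 2890 in premalignant and 2503 and 2354 in malignant cells. In malignant vs wild type all 8 were called lower, where 24.3% of all genes were called lower. So were all tested myeloid (6), erythroid (4), NK (2), mature B (2) and megakaryocyte (1) markers, 4 of 5 T-cell and 1 of 2 plasma-cell markers. The wild-type libraries also held most of the RNA of other cell types: 6 myeloid markers summed to 771 and 1695 CPM in wild type, 231 and 247 in premalignant and 55.0 and 111 in malignant cells, and 4 erythroid markers to 58.4 and 164, 10.0 and 18.0, and 6.53 and 7.06. The 5 T-cell markers summed to between 1.21 and 65.4 CPM over the libraries, with Cd3e at 0 in a premalignant library. The 2 NK markers lay between 0.377 and 60.7, the 2 plasma-cell markers between 3.39 and 76.0, the 2 mature B markers matched of 3 between 0.717 and 6.14 and the 2 megakaryocyte markers between 0.609 and 3.54, with Pf4 at 0 in a malignant library. The part of these markers' cells in the results below was not tested. In these bulk samples fewer cells of a type and less RNA per cell cannot be told apart.

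The start regions of 7 of the 10 genes were found in the RefSeq promoter table (build GRCm38.p6), in 9 regions that run from 250 bases before to 50 after the start. Ccnd2, Ccne2 and Rb1 had no entry. The regions were searched for CACGTG, an E-box that MYC with its partner MAX binds, and for either TTCCCGC or TTGGCGC or the related TTCGCGC and also TTGCCGC, letters that E2F factors bind, on both strands. The E-box letters were in 7.15% of 32851 mouse start regions of this length and the E2F letters in 9.57%. Cdk4 held 4 E-boxes, a number reached by 8 of all these regions (0.0244%), and Cdk6 held 1. Cdk2 held 3 E2F matches, and 1.18% of all regions held at least 2. Cdkn2c held 1 match of each kind, in different regions, while the regions of Ccnd3, Ccne1 and Cdkn1b had neither set of letters. Such a match is a description of the letters, and binding was not measured here. Of the regions with a match before the start, that of Cdkn2c is not printed here. For the kinase genes the 250 bases before the start are printed, 5′ to 3′ on the gene's strand with the matched letters in capitals. They are chr10:127063285-127063534 (plus strand) for Cdk4, chr5:3343643-3343892 (plus strand) for Cdk6 and chr10:128705052-128705301 (minus strand) for Cdk2.
Cdk4: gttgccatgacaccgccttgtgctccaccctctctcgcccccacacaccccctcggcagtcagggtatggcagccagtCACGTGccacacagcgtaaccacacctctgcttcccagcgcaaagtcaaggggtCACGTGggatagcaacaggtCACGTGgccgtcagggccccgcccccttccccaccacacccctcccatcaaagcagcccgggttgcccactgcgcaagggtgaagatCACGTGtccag
Cdk6: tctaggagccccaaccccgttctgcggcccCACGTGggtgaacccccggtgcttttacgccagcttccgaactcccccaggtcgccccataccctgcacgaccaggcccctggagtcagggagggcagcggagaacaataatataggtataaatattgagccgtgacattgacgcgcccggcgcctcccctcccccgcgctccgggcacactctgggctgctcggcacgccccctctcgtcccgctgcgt
Cdk2: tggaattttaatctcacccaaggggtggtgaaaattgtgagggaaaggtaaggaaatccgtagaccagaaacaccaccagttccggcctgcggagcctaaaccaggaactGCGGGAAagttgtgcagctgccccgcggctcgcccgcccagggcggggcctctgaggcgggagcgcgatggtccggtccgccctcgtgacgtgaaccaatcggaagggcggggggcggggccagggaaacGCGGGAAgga

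**Figure D1:**
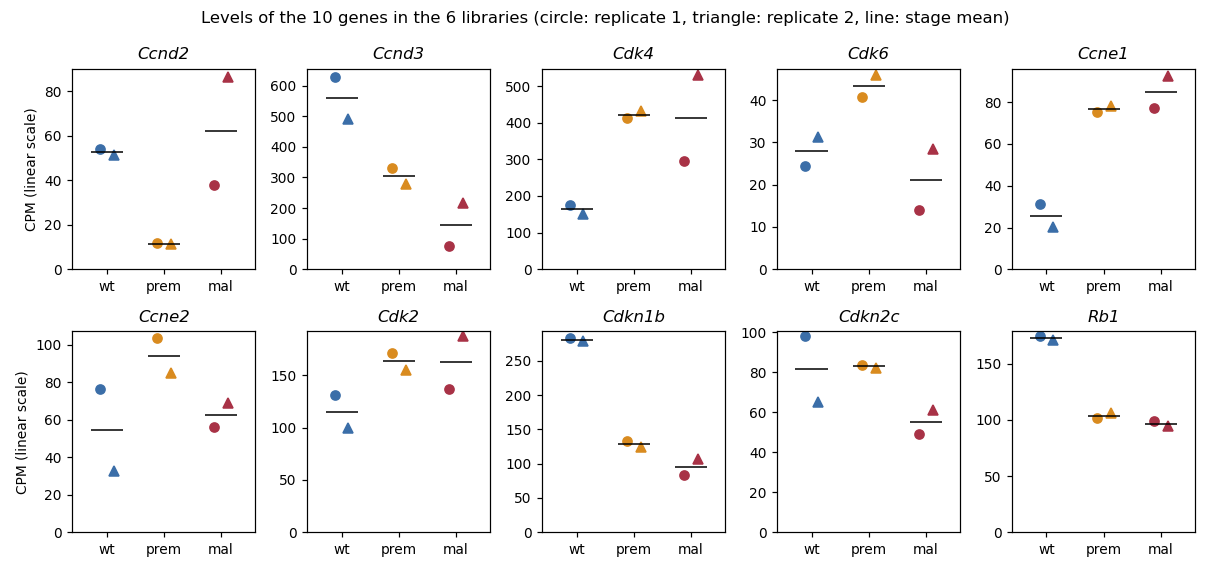
CPM (linear vertical axis, TMM-scaled) of the 10 genes in each of the 6 libraries, with stages on the horizontal axis (wt, wild type; prem, premalignant; mal, malignant). Points are single libraries and lines are means of 2; Cdkn1b, Rb1 and Ccnd3 lay highest in both wild-type libraries, Cdk4 and Ccne1 lay lowest there, and the malignant libraries of Ccnd2 lay on either side of wild type.

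To ask which parts of this machinery differed between normal cells, Myc-driven premalignant cells and lymphoma, the stages were compared with edgeR's quasi-likelihood test on all 6 libraries. A gene was called at a Benjamini-Hochberg adjusted p of at most 0.1 over all genes tested with a log2 fold change of 0.5 or more in either direction. In premalignant against wild-type cells 5 of the 10 were called, with Cdk4 and Ccne1 higher and Ccnd2, Cdkn1b and Rb1 lower. This compares with 39.3% of all genes called, 19% higher and 20.3% lower. In malignant against wild-type cells 6 were called, with Cdk4 and Ccne1 higher and Ccnd3, Cdkn1b, Cdkn2c and Rb1 lower, where 49.2% of all genes were called, 24.9% higher and 24.3% lower. Between malignant and premalignant cells Ccnd2 alone was called, as higher, against 6.18% of all genes, 3.73% higher and 2.45% lower. None of the 10 was called lower there, although 3 were lower at an unadjusted p under 0.05 and DESeq2 called 1 of them, Cdk6. The share of the 10 that was called was near that of all genes in each comparison. Their median log2 fold change was 0.26, -0.11 and -0.27 in the 3 comparisons in the order given above, where all genes had -0.08, -0.02 and 0.04.

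The counts rest on few libraries. In premalignant vs wild type, 8 of the 10 were called when the stages compared were fitted alone or when either malignant library was left out, which added Ccnd3, Cdk6 and Cdk2, and 3 without premalignant replicate 2. The calls over all genes rose in the same fits, from 6563 of 16683 to 8245 of 16313 in the stages alone, 8268 of 17063 without malignant replicate 1 and 8455 of 18065 without malignant replicate 2. In malignant vs premalignant, none was called when those stages were fitted alone (1 higher and 4 lower at an unadjusted p under 0.05). Calls over all genes fell in that fit from 1031 of 16683 to 258 of 15552. With 1 library left out, the calls of the 10 and of all genes moved the same way. Both fell without a wild-type or premalignant library and rose without malignant replicate 2, so these shifts are not particular to the 10. The split of all calls between malignant and premalignant cells, 623 higher and 408 lower, became 487 and 492 with upper-quartile scaling.

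**Figure D2:**
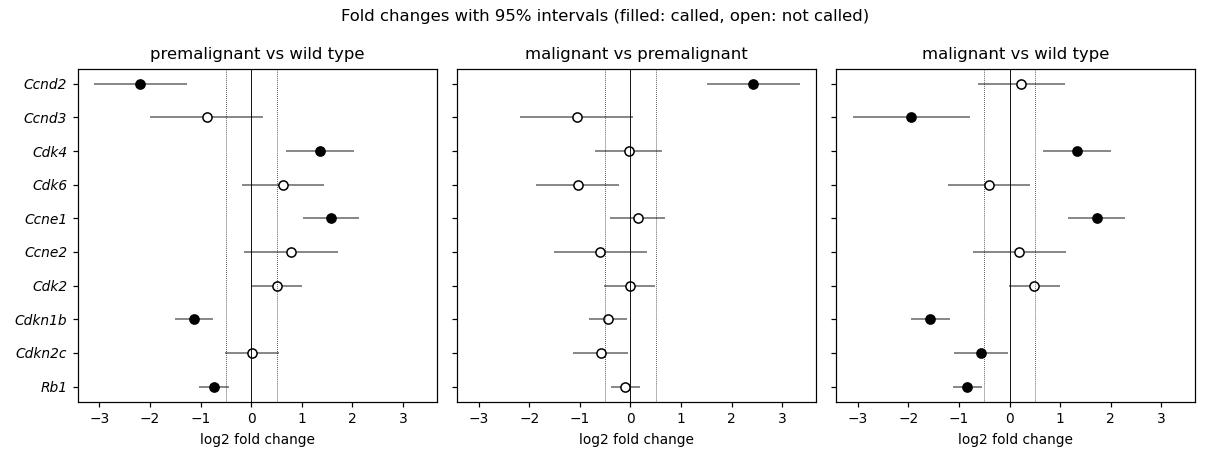
Log2 fold change (horizontal axis) of the 10 genes in the 3 comparisons, with 95% intervals from the edgeR fit; filled points were called and dotted lines mark the minimum fold change. Ccnd2 lies far below 0 between premalignant and wild-type cells and far above it between malignant and premalignant cells, while Cdk4, Ccne1, Cdkn1b and Rb1 lie on the same side of 0 in both comparisons with wild type.

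Among the D-type cyclins, Ccnd3 was the main transcript of normal cells and the most reduced in lymphoma, and Ccnd2 was lowest in the premalignant stage. Ccnd2 (ENSMUSG00000000184, mm9 chr6:127075797-127101066) stood at 54.1 and 51.1 CPM in wild type, 11.8 and 11.3 in premalignant and 37.7 and 86.3 in malignant cells. Both premalignant libraries lay below the other 4, and the malignant libraries lay on either side of wild type. Ccnd2 fell 4.57-fold from wild type to premalignant cells (log2 fold change -2.19, SE 0.38, adjusted p = 0.00946, n = 2 per stage, edgeR quasi-likelihood test), a call that held in all 13 alternatives. It was 5.38-fold higher in malignant than in premalignant cells (log2 fold change 2.43, SE 0.38, adjusted p = 0.0362). This last call was lost when those stages were fitted alone (adjusted p = 0.124), without wild type replicate 1 or 2 (0.121 and 0.118) and without premalignant replicate 1 or 2 (0.341 and 0.286), with log2 fold changes of 2.40 to 2.46. It was kept at 2.90 without malignant replicate 1 and at 1.68 without malignant replicate 2. Malignant and wild-type cells differed by 0.24 in log2 (95% interval -0.63 to 1.10, not called), but it was 0.72 and called without malignant replicate 1 (adjusted p = 0.00607) and -0.45, short of the minimum fold change, without malignant replicate 2 (adjusted p = 0.0457).

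Ccnd3 (ENSMUSG00000034165, chr17:47642000-47736632) was at 628 and 490 CPM in wild type, 330 and 279 in premalignant and 74.4 and 217 in malignant cells. No library overlapped another stage, and the order was the same in both replicates. Ccnd3 fell 3.84-fold from wild type to malignant cells (log2 fold change -1.94, SE 0.48, adjusted p = 0.0192, edgeR quasi-likelihood test), and the fold change was -1.36 without malignant replicate 1 and -2.89 without malignant replicate 2, called in each case. The single steps were not called, with log2 fold changes of -0.88 for premalignant vs wild type and -1.06 for malignant vs premalignant (adjusted p = 0.194 and 0.273). The former was called without malignant replicate 1 or 2 (-0.87 and -0.82, adjusted p = 0.00543 and 0.00756), and the latter was -2.07 and called without malignant replicate 2 (adjusted p = 0.00186) and -0.49 without malignant replicate 1. Of the exon bases of Ccnd3, 15.7% overlap those of Bysl, and reads of a kit that does not mark strand cannot be divided between them.

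Ccnd1, the D-type cyclin that is little used in normal B cells, stood beside this at 37.2 and 20.8 CPM in wild type, 32.5 and 50.6 in premalignant and 236 and 170 in malignant cells. Both malignant libraries lay above the other 4. Ccnd1 rose 7.0-fold from wild type to malignant cells (log2 fold change 2.81, adjusted p = 0.00243) and 4.89-fold from premalignant to malignant cells (2.29, adjusted p = 0.0363, edgeR quasi-likelihood test), while premalignant and wild-type cells differed by 0.52 (not called). The 13 alternatives were not reported for Ccnd1. At a like adjusted p, the call of Ccnd2 in malignant vs premalignant held in 8 of them. An overlap with Oraov1 touches 21.3% of the exon bases of Ccnd1.

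Per exon length, as reads per kilobase of exon, scaled as CPM (RPKM), the 3 D-type cyclins summed to 298 and 232 in the wild-type libraries, 157 and 139 in the premalignant and 101 and 156 in the malignant ones. Wild-type sums lay above all others, and premalignant and malignant sums overlapped. Ccnd3 gave 279 and 217 RPKM of the wild-type sums, against 9.48 and 8.96 from Ccnd2 and 9.70 and 5.43 from Ccnd1. In malignant replicate 1, Ccnd1 at 61.6 RPKM was 1.87 times Ccnd3 at 33.0, and in malignant replicate 2, Ccnd1 at 44.4 was 0.461 times Ccnd3 at 96.3. The leading D-type cyclin was therefore Ccnd3 in 5 libraries and Ccnd1 in malignant replicate 1.

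**Figure D3:**
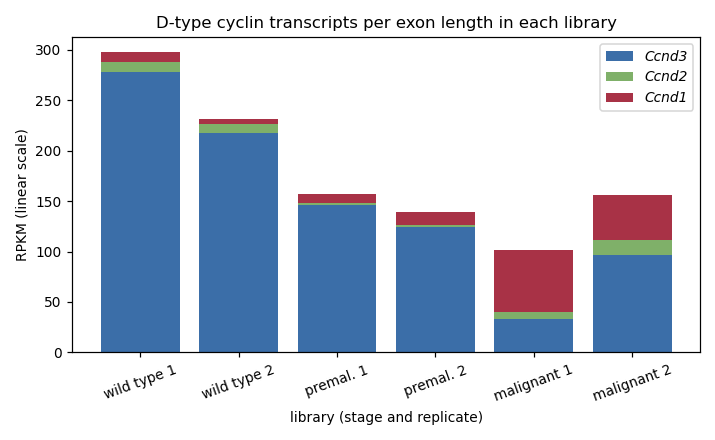
RPKM (linear vertical axis) of Ccnd3, Ccnd2 and Ccnd1 stacked for each of the 6 libraries on the horizontal axis; each bar is a single library and has no error bar. Ccnd3 makes up nearly all of the wild-type bars, the Ccnd2 layer is thinnest in the premalignant bars at 2.06 and 1.98 RPKM, and the Ccnd1 layer is widest in the malignant bars.

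The ratio of Ccnd2 to Ccnd3 within a library does not depend on the scaling of that library. Its log2 was -4.88 and -4.60 in wild type, -6.15 and -5.97 in premalignant and -2.32 and -2.67 in malignant cells, with no overlap between stages. The difference was -1.32 for premalignant vs wild type and 3.57 for malignant vs premalignant. An exact two-sided permutation test of 2 against 2 libraries cannot give a p below 0.333, which it gave for this and for every other ratio and comparison.

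Of the kinases that D-type cyclins bind, Cdk4 was higher in both Myc-driven stages, and the calls of Cdk6 depended on the fit. Cdk4 (ENSMUSG00000006728, chr10:126500590-126504976), whose start region carries the 4 E-boxes printed above, was at 176 and 151 CPM in wild type, 413 and 431 in premalignant and 295 and 529 in malignant cells. All 4 libraries with the transgene lay above both wild-type libraries, and the malignant libraries lay on either side of the premalignant ones. Cdk4 rose 2.57-fold in premalignant cells (log2 fold change 1.36, SE 0.28, adjusted p = 0.0154) and was 2.51-fold higher in malignant cells than wild type (1.33, SE 0.28, adjusted p = 0.0112, edgeR quasi-likelihood test). Without malignant replicate 2 the latter was 0.87 and still called, while the premalignant call was lost without wild type replicate 2 (1.26, adjusted p = 0.113) and without premalignant replicate 2 (1.34, adjusted p = 0.102). Between malignant and premalignant cells Cdk4 differed by -0.03 (not called), but by -0.55 without malignant replicate 2 (adjusted p = 0.0613, called) and by 0.33 without malignant replicate 1. Tspan31 shares 18.6% of the exon bases.

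Cdk6 (ENSMUSG00000040274, chr5:3343893-3523218) was at 24.5 and 31.4 CPM in wild type, 40.8 and 45.9 in premalignant and 14.0 and 28.4 in malignant cells. Premalignant libraries were the highest, and wild type and malignant overlapped. The log2 fold change was 0.63 (95% interval -0.18 to 1.45) for premalignant vs wild type, -1.04 (-1.86 to -0.22) for malignant vs premalignant and -0.40 (-1.22 to 0.41) for malignant vs wild type, with adjusted p of 0.196, 0.172 and 0.377, none called (edgeR). With the replicate number as a block the first and the second were called (0.65 and -1.11, adjusted p = 0.0988 and 0.0922), and 5 and 4 of the 13 alternatives called them. The first was called without malignant replicate 1 or 2 (0.64 and 0.69), the second without malignant replicate 2 (-1.66), and the last without malignant replicate 2 (-0.97), while without malignant replicate 1 the last was 0.03. Per exon length Cdk4 was 8.26 and 5.55 times Cdk6 in the wild-type libraries, 11.6 and 10.8 times in the premalignant and 24.2 and 21.4 times in the malignant ones. The stages did not overlap in this ratio, which on the log2 scale differed by 0.73 between premalignant and wild type and by 1.02 between malignant and premalignant.

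The E-type cyclins bind CDK2 at the end of G1. Ccne1 (ENSMUSG00000002068, chr7:38883003-38892553) was at 31.0 and 20.3 CPM in wild type, 75.5 and 78.0 in premalignant and 77.0 and 92.5 in malignant cells. Every library with the transgene lay above both wild-type libraries, and the 2 transgenic stages overlapped. Ccne1 rose 2.99-fold in premalignant cells (log2 fold change 1.58, SE 0.23, adjusted p = 0.00576) and 3.30-fold in malignant cells (1.72, SE 0.23, adjusted p = 0.00261, edgeR quasi-likelihood test), and both calls held in all 13 alternatives. The step between the transgenic stages was 0.14 (95% interval -0.40 to 0.68, not called).

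Ccne2 (ENSMUSG00000028212, chr4:11118498-11131926) was at 76.6 and 32.7 CPM in wild type, 104 and 84.9 in premalignant and 56.1 and 69 in malignant cells. The wild-type libraries differed more from each other than the means of the stages did, and the malignant libraries fell between them. The log2 fold changes were 0.78 for premalignant vs wild type, -0.59 for malignant vs premalignant and 0.19 for malignant vs wild type, none called (adjusted p = 0.165, 0.455 and 0.720, edgeR). Leaving out wild type replicate 1 gave called values of 1.53 and 0.94 for the comparisons with wild type, and leaving out wild type replicate 2 turned the latter to -0.29. Ints8 shares 17.4% of the exon bases. Wild type replicate 1 was also higher than replicate 2 in all 17 E2F target genes, with a median log2 difference of 0.43, whereas 7 and 5 of these were higher in replicate 1 in premalignant and malignant cells. Its part in the Ccne2 values was not tested.

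Within a library the log2 ratio of Ccne1 to Ccne2, per exon length, was -0.91 and -0.29 in wild type, -0.06 and 0.27 in premalignant and 0.85 and 0.82 in malignant cells. Ccne2 was thus above Ccne1 in both wild-type libraries, and Ccne1 was above Ccne2 in both malignant ones.

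Cdk2 (ENSMUSG00000025358, chr10:128134995-128142107), the partner of the E-type cyclins, was at 131 and 99.7 CPM in wild type, 172 and 155 in premalignant and 137 and 188 in malignant cells. Both wild-type libraries lay below the other 4, wild type replicate 1 just below malignant replicate 1, and the other stages overlapped. The log2 fold change was 0.50 (95% interval -0.0039 to 1.01, adjusted p = 0.115) in premalignant and 0.49 (-0.01 to 1.00, adjusted p = 0.104) in malignant against wild-type cells, neither called by edgeR. DESeq2 called the premalignant value (0.51, adjusted p = 0.0934), as did edgeR without malignant replicate 1 or 2 (0.51 and 0.56, adjusted p = 0.0386 and 0.0313). The malignant value was called without wild type replicate 1 or malignant replicate 1 (0.71 in each case, adjusted p = 0.0905 and 0.0227) and was 0.27 without malignant replicate 2. No change was detected at the called level between malignant and premalignant cells (-0.01, interval -0.51 to 0.50).

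**Figure D4:**
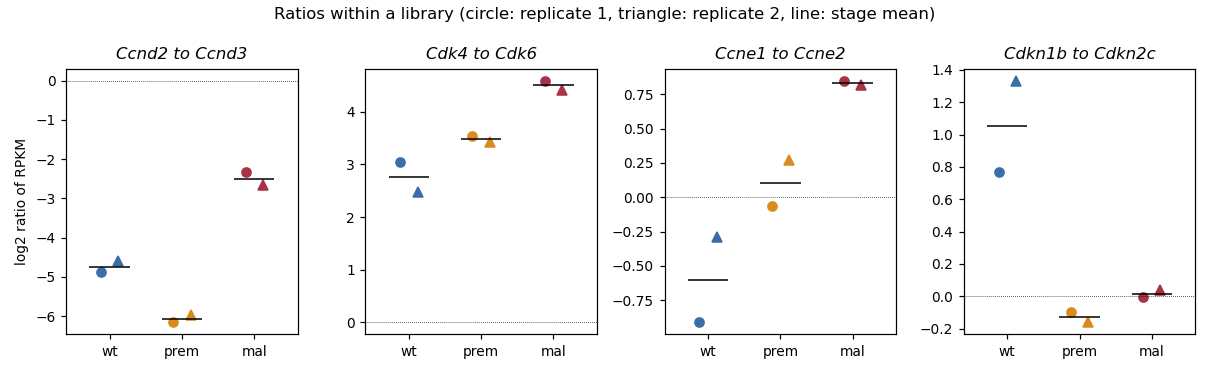
Log2 ratio of RPKM within a library (vertical axis, linear in log2) for 4 pairs of genes, by stage on the horizontal axis (wt, wild type; prem, premalignant; mal, malignant). Points are single libraries and lines are means of 2; the ratio of Cdk4 to Cdk6 and of Ccne1 to Ccne2 lies higher at each later stage, the ratio of Ccnd2 to Ccnd3 is lowest in premalignant cells, and that of Cdkn1b to Cdkn2c is highest in wild-type cells.

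The inhibitor Cdkn1b and the pocket protein gene Rb1 lay lower in every transgenic library than in wild type. Cdkn1b (ENSMUSG00000003031, chr6:134870419-134875531), which encodes p27, was at 283 and 279 CPM in wild type, 133 and 125 in premalignant and 83.3 and 106 in malignant cells. The 3 stages did not overlap. Cdkn1b fell 2.18-fold in premalignant cells (log2 fold change -1.13, SE 0.16, adjusted p = 0.00510) and 2.97-fold in malignant cells against wild type (-1.57, SE 0.16, adjusted p = 0.00118, edgeR quasi-likelihood test), in all 13 alternatives. The step from premalignant to malignant was -0.44 (95% interval -0.82 to -0.07, adjusted p = 0.191), not called, and -0.66 without malignant replicate 2 (adjusted p = 0.0252, called).

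Cdkn2c (ENSMUSG00000028551, chr4:109333481-109339794), which encodes p18, was at 98 and 65.3 CPM in wild type, 83.7 and 82.1 in premalignant and 49.3 and 61.0 in malignant cells. Malignant libraries were the lowest, and the premalignant ones lay between the wild-type ones. Cdkn2c fell 1.48-fold from wild type to malignant cells (log2 fold change -0.57, SE 0.22, adjusted p = 0.0842, edgeR quasi-likelihood test), a call that held in 6 of 13 alternatives. It was lost without wild type replicate 1 (-0.24), without premalignant replicate 1 or 2 (-0.56 in each case) and without malignant replicate 1 (-0.41), and in the fit of those stages alone (adjusted p = 0.157). Premalignant and wild-type cells differed by 0.02 (95% interval -0.51 to 0.56), and malignant and premalignant cells by -0.59 (adjusted p = 0.216, not called; -0.78 and called without malignant replicate 2). Per exon length Cdkn1b was 1.70 and 2.52 times Cdkn2c in wild type, 0.936 and 0.895 times in premalignant and 0.996 and 1.03 times in malignant cells.

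Rb1 (ENSMUSG00000022105, chr14:73583480-73725629) was at 175 and 171 CPM in wild type, 102 and 106 in premalignant and 98.6 and 94.6 in malignant cells. The stages did not overlap, and the gap between the transgenic stages was small beside that to wild type. Rb1 fell 1.66-fold in premalignant cells (log2 fold change -0.74, SE 0.12, adjusted p = 0.00775) and 1.79-fold in malignant cells (-0.84, SE 0.12, adjusted p = 0.00317, edgeR quasi-likelihood test). The premalignant call was lost without premalignant replicate 1 (-0.70, adjusted p = 0.107) or 2 (-0.76, adjusted p = 0.103). Lpar6 and Rcbtb2 share 14.9% of the exon bases.

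Set in order of mean RPKM, wild-type cells ran from Ccnd3 (248) through Cdkn1b (61.7), Cdk4 (50.4), Cdk2 (47.4), Cdkn2c (30.4), Rb1 (28.7), Ccne2 (15.6), Ccne1 (9.65) and Ccnd2 (9.22) to Cdk6 (7.48). Ranges of neighbours over the libraries overlapped for Cdk4 and Cdk2, for Cdkn2c and Rb1, and for Ccne2, Ccne1 and Ccnd2. Within each wild-type library, however, Cdk4 lay above Cdk2 and Ccne2 above Ccne1. In premalignant cells Ccnd3 (135) and Cdk4 (130) overlapped at the top and Ccnd2 (2.02) stood below all others. In malignant cells Cdk4 (127) was above Cdk2 (66.8) in both libraries, Cdk2, Ccnd3 (64.7) and Ccne1 (31.8) overlapped in turn, and Ccnd2 (10.9) and Cdk6 (5.67) were last and overlapped. Within each malignant library, however, Ccnd3 lay above Ccne1 and Ccnd2 above Cdk6.

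The other inhibitors and pocket proteins moved in both directions. Cdkn2d, which encodes the INK4 inhibitor p19, was at 11.8 and 10.8 CPM in wild type, 5.01 and 5.33 in premalignant and 3.33 and 2.80 in malignant cells. It fell with log2 fold changes of -1.13 and -1.88 against wild type (adjusted p = 0.0238 and 0.00339, edgeR quasi-likelihood test). Cdkn2a, whose locus encodes both p16 and ARF, which gene counts do not separate, had 11 and 2 counts in wild type, 217 and 186 in premalignant and 14 and 246 in malignant cells. It rose with log2 fold changes of 5.17 (SE 1.56, adjusted p = 0.0492) in premalignant and 5.06 (SE 1.56, adjusted p = 0.0403) in malignant cells, but malignant replicate 1, at 0.293 CPM, was close to the wild-type libraries at 0.193 and 0.0566. Cdkn2b, another INK4 gene, had 0 to 25 counts per library and was not called.

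Cdkn1a, which encodes the CIP/KIP inhibitor p21, was at 17.5 and 15.0 CPM in wild type, 8.02 and 6.81 in premalignant and 3.10 and 8.14 in malignant cells. It fell from wild type to malignant cells (log2 fold change -1.54, adjusted p = 0.0371) and was not called in premalignant cells (-1.13, adjusted p = 0.106, edgeR). Cdkn1c, which encodes p57, was at 1.89 and 1.22, 2.17 and 4.37, and 11.7 and 4.59 CPM, and rose from wild type to malignant cells (2.39, adjusted p = 0.0215). The pocket protein gene Rbl2 fell by 0.52 and by 0.74 on the log2 scale in premalignant and malignant against wild-type cells (adjusted p = 0.0349 and 0.00806). Rbl1 was not called in any comparison, with a log2 fold change of 0.02 (95% interval -0.56 to 0.61) in malignant vs wild type.

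Downstream, 14 of 17 E2F target genes rose in premalignant and 14 in malignant cells against wild type, with median log2 fold changes of 0.97 and 0.90, where 19% and 24.9% of all genes were called higher. Mcm6 and Mcm3, subunits of the replicative helicase, rose 2.61-fold and 2.40-fold in malignant cells (log2 fold changes 1.38 and 1.26, adjusted p = 0.00526 and 0.00815, edgeR). Between malignant and premalignant cells the median was 0.00, and Tk1, a thymidine kinase gene named after its value was seen, was the single call (0.76, adjusted p = 0.0587). In that comparison 3.73% of all genes were called higher. Of 10 E2F and DP genes, 4 rose in premalignant cells, and 5 rose and 2 fell in malignant cells against wild type. Tfdp1, a DNA-binding partner of E2F factors, rose 3.29-fold and 3.64-fold (log2 fold changes 1.72 and 1.86). In malignant cells the 2 that fell were E2f2 (-0.69, adjusted p = 0.00794) and Tfdp2, another DP gene (-1.10, adjusted p = 0.0268, edgeR). Both were named here after their values were seen. Between malignant and premalignant cells E2f2 was the single call of these 10, as lower (-0.72, adjusted p = 0.0511, edgeR). E2f6, a repressive family member, rose 2.45-fold in malignant cells against wild type (1.29, adjusted p = 0.0548). E2f6 stood at 25.9 and 66.9 CPM in the malignant libraries against 22.3 and 15.3 in wild type, so that malignant replicate 1 lay close to wild type.

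In the list for turnover of p27 and cyclins, 3 of 7 genes rose in premalignant and 4 in malignant cells against wild type. Cks1b, a cofactor that lets the SCF ubiquitin ligase recognise p27, rose from 77.2 and 55.5 CPM in wild type to 154 and 159 in premalignant and 143 and 191 in malignant cells (log2 fold changes 1.24 and 1.33, adjusted p = 0.00990 and 0.00492, edgeR). Cul1, the scaffold of that ligase, rose with log2 fold changes of 0.60 and 0.72. Skp2, which binds p27 in it and was named after its value was seen, was not called (0.78 and 0.56). Of 4 genes of CDK activation, 3 rose in premalignant and 2 in malignant cells, among them Cdc25a, a phosphatase that activates CDK2 (1.15 and 0.93), and Mnat1, a subunit of the CDK-activating kinase (0.57 and 0.99). Of the 5 MuvB core genes, 1 rose in premalignant cells and Lin37 fell in malignant cells against wild type (-0.55, adjusted p = 0.0521). Over all 51 of these other G1 to S genes, 26 were higher and 2 lower in premalignant, and 28 higher and 6 lower in malignant against wild-type cells, while malignant and premalignant cells differed in 2 higher and 1 lower. Among all genes 19% were called higher and 20.3% lower in premalignant, and 24.9% and 24.3% in malignant against wild-type cells. Between malignant and premalignant cells 3.73% of all genes were called higher and 2.45% lower.

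**Figure D5:**
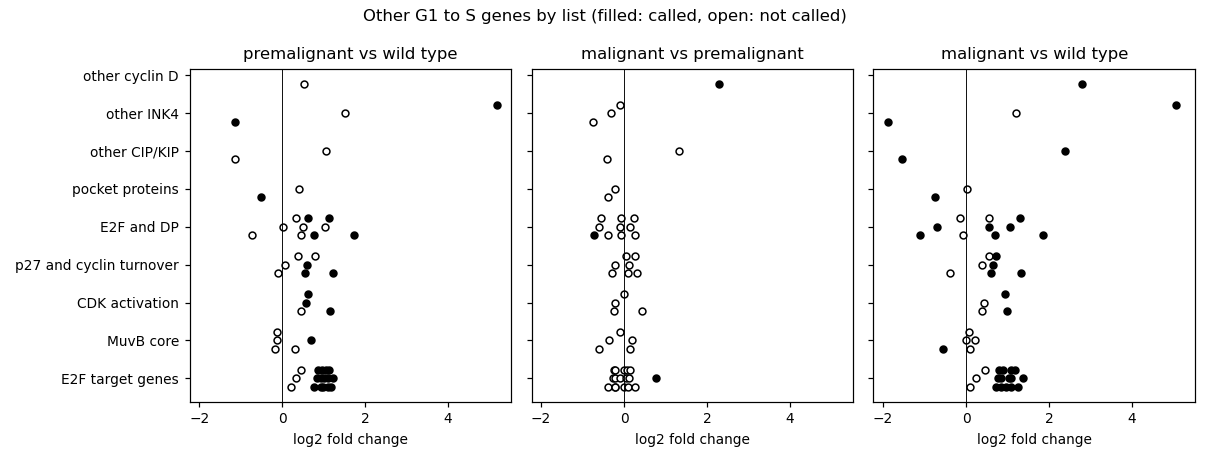
Log2 fold change (horizontal axis) of the 51 other G1 to S genes by list (vertical axis) in the 3 comparisons; each point is a gene, filled where called, and points of a list are spread vertically only for legibility. The E2F target genes lie between 0 and 1.5 against wild type and around 0 between malignant and premalignant cells, and the outlying points near 5 are Cdkn2a.

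The pattern of each gene over the 6 libraries was set against 60 others, the remaining 9 and the 51, by the Euclidean distance of log2(CPM + 1) values centred on each gene's mean. The nearest to Ccne1 was Tfdp1 (distance 0.25), to Cdk4 Mcm2 (0.37), to Cdk2 Skp1a (0.22), to Rb1 Rbl2 (0.25) and to Cdkn1b Cdkn2d (0.44). Next were Cdkn2c with E2f2 (0.46), Ccne2 with Skp2 (0.55), Cdk6 with E2f7 (0.82) and Ccnd3 with Cdkn1a (0.88). Second nearest were Cks1b for Ccne1 and Cdk4 (0.44 and 0.39), E2f5 for Cdk2 (0.25), Lin37 for Rb1 (0.60), Cdkn1a for Cdkn1b (0.60), E2f7 for Cdkn2c (0.55), Ccna2 for Ccne2 (0.57), E2f2 for Cdk6 (0.90) and Cdkn1b for Ccnd3 (1.20). Ccnd2 had no near neighbour: Lin52 and Fbxw7 lay closest, at 2.41 and 2.44. All distances share the same 6 libraries and their scaling.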

How the data were processed

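RNA-seq of sorted pre-B cells was analysed in 6 libraries, grouped by stage from their labels. The authors aligned single-end reads with TopHat and counted them with HTSeq (the submitters' processing notes also list CASAVA 1.8.2, Bowtie, DESeq and build mm9), and deposited raw counts per gene. HTSeq's options are not given in the sources used here. The deposited DEseq tables, which hold pooled means and the authors' own fold changes and p-values, were not used. Counts were tested with edgeR 4.0.16 (R 4.3.3; TMM, default low-count filter, quasi-likelihood test, two-sided, all 6 libraries in 1 fit, no replicate block). The SE was taken from the log2 fold change and its F statistic. The calls used an FDR of 0.1 and a log2 fold change of 0.5, after the study's methods. The tests were checked on simulated data, where edgeR left many changed genes uncalled even at large folds and the recovery first required was lowered, so a gene that was not called may still differ. CPM are TMM-scaled, and RPKM divides them by the union of exons. Symbols, mm9 coordinates and lengths came from GENCODE vM1 (37205 identifiers matched, 786 did not). The 13 alternatives were DESeq2 1.42.0, other scaling, filters, FDR and samples, and a replicate block. The genes and lists were chosen with earlier results of these data known. All 10 genes, the short lists in full, and in longer lists at most the 2 called genes with the largest malignant vs wild type change and no overlap of libraries were named, with the 2 nearest genes by pattern. With 2 animals per stage, each edgeR p-value sets a difference against a spread estimated from these 6 libraries and shared in part across genes. Intervals and floors cover no other error. Without a spike-in, total RNA per cell cannot be compared.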

Additional observations from a re-analysis of the deposited data

How the results depend on the processing

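Of the calls, Ccnd2, Ccne1 and Cdkn1b in premalignant vs wild type and Ccnd3, Cdk4, Ccne1, Cdkn1b and Rb1 in malignant vs wild type held in all 13 alternatives. The number of the 10 genes called in premalignant vs wild type, 5, became 9 with no filter on low counts, 8 with only the stages compared and 3 to 8 with 1 library left out. In malignant vs premalignant the single call became 2 with DESeq2, 5 with no filter, 2 with the replicate block, 0 with only the stages compared and 0 to 6 with 1 library left out. With 1 library left out, the lone library of a stage is assumed to vary like the others. Over all genes the 1031 calls of that comparison became 2113 with DESeq2, 2810 with no filter, 258 with only the stages compared, 407 at an FDR of 0.05 and 0 to 3805 with 1 library left out. The 6563 calls in premalignant vs wild type became 3285 without wild type replicate 2, 2503 without premalignant replicate 1 and 2094 without premalignant replicate 2. The cause was not tested. Replicate numbers are shared by the stages, but only 2 pairs exist and no label ties a number to a litter or day. Total counts followed the number. They were 51065861, 53453055 and 52996457 in replicate 1 of wild type, premalignant and malignant, and 31283803, 34543633 and 30031100 in replicate 2. Whether the numbers mark a batch was not tested. Deviations from the stage means correlated at 0.51, 0.26 and 0.19 over 16683 genes in premalignant vs wild type, malignant vs premalignant and malignant vs wild type. With the replicate block 6, 2 and 5 of the 10 genes were called, beside 6575, 940 and 8224 of the 16683 genes tested. Cdk6 was gained in the first pair of stages (0.65) and the second (-1.11), and Cdkn2c was lost in malignant vs wild type (-0.55). With the length of the longest transcript, the log2 ratio of Cdk4 to Cdk6 moved to 3.42, 4.15 and 5.17 in wild type, premalignant and malignant cells, that of Ccne1 to Ccne2 in malignant cells to 1.03, and that of Cdkn1b to Cdkn2c to -0.25 in premalignant and, with its sign turned, to -0.10 in malignant cells. With 1 library left out, the last ranged from -0.0057 to 0.038 and the ratio of Ccne1 to Ccne2 in premalignant cells from -0.063 to 0.27. Signs turned in fold changes that were not called with all libraries. With each malignant library left out in turn, malignant vs wild type ranged from -0.45 to 0.72 for Ccnd2 and from -0.97 to 0.032 for Cdk6, and malignant vs premalignant from -0.029 to 0.27 for Ccne1 and from -0.55 to 0.33 for Cdk4. Of these ends, the upper for Ccnd2, the lower for Cdk6 and the lower for Cdk4 were called. Over all libraries left out, Cdk2 in malignant vs premalignant ranged from -0.29 to 0.20 (0.064 without premalignant replicate 1), Ccne2 in malignant vs wild type from -0.29 to 0.94 and Cdkn2c in premalignant vs wild type from -0.24 to 0.35. Cdkn2c in premalignant vs wild type was -0.060 with upper-quartile scaling and -0.040 with at least 10 counts in every library. Upper-quartile scaling moved the median of all genes (log2 fold change) from -0.02 to -0.19 in malignant vs wild type and from -0.08 to -0.17 in premalignant vs wild type. Depth did not limit the 10 genes, whose lowest level was 11.3 CPM; Cdkn2b and, in wild type, Cdkn2a were near the floor.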
